A study of Mus musculus with 6 samples.

Results

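The cadherins, the non-clustered protocadherins and the neural adhesion molecules of the immunoglobulin superfamily were followed in sorted ventral midbrain cells of embryonic day 12.5 mice. Members were all probe sets with exactly 1 gene symbol that was Cdh, Pcdh or Igsf followed by a number, Cadm or Cntn followed by 1 digit, Ncam1, Ncam2, Alcam, L1cam, Chl1, Nfasc or Nrcam. This rule found 136 probe sets for 58 of the 18201 genes that the array names, and it used no measured value. Messenger RNA was measured on 1 array per sample, with 3 biological replicates in each of 2 groups, per the series' design text. The positive group held GFP-positive cells of Ngn2-GFP reporter mice on a CD1/129 background, and the negative group held GFP-negative cells of Lmx1a-GFP reporter mice on a C57BL/6 background. Both were taken from the ventral mesencephalon by fluorescence-activated sorting. Ngn2 (Neurog2) is a proneural transcription factor and Lmx1a a transcription factor of midbrain dopaminergic progenitors. The question was which genes differ between a population that holds the dopaminergic progenitors and a non-dopaminergic reference. Reporter line, strain and gate all coincide with the group, so they cannot be told apart. Whether cells of several embryos were pooled is not given in the sources used here.

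Classical cadherins are transmembrane proteins that bind the same cadherin on a neighbouring cell in the presence of calcium and hold on to the actin cytoskeleton through catenins. Protocadherins share the cadherin repeats but lack the catenin-binding tail of the classical proteins. The immunoglobulin adhesion molecules, among them NCAM, the L1 family, the contactins, the SynCAMs and ALCAM, bind each other or themselves without calcium, and in the developing brain both superfamilies take part in cell sorting, axon growth and synapse formation.

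Alcam, the activated leukocyte cell adhesion molecule, was the one member that passed the test, and it was higher in positive cells. Each gene was represented by its brightest probe set among those that cleared a filter, the 40th percentile of all signals on an array, on 3 or more arrays. Of the members, 43 genes were tested and 15 were not, so counts below are of the tested genes and not of all members. Differences are log2 signal in positive minus negative cells, SE is the standard error from limma, and adjusted p-values are Benjamini-Hochberg values over all 12047 tested genes with a threshold of 0.05. In that fit 1 of 43 members was higher in positive cells, against 0.423% of all tested genes. No member was lower, against 0.639% of all tested genes. At an unadjusted p under 0.05 there were 9 members on the higher side (5.68% of all genes) and 0 on the lower side (5.08% of all genes). Both counts moved with the arrays and probe sets used, as given near the end. The 3 positive and 3 negative arrays did not overlap for 7 members above (8.21% of all genes) and for 1 member below, Cdh2 (7.25% of all genes). Over the tested members the differences ran from -0.63 for Pcdh18 to 1.70 for Alcam, with a median of 0.10 against 0.03 over all tested genes, and 24 were above 0 and 19 below.

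**Figure D1:**
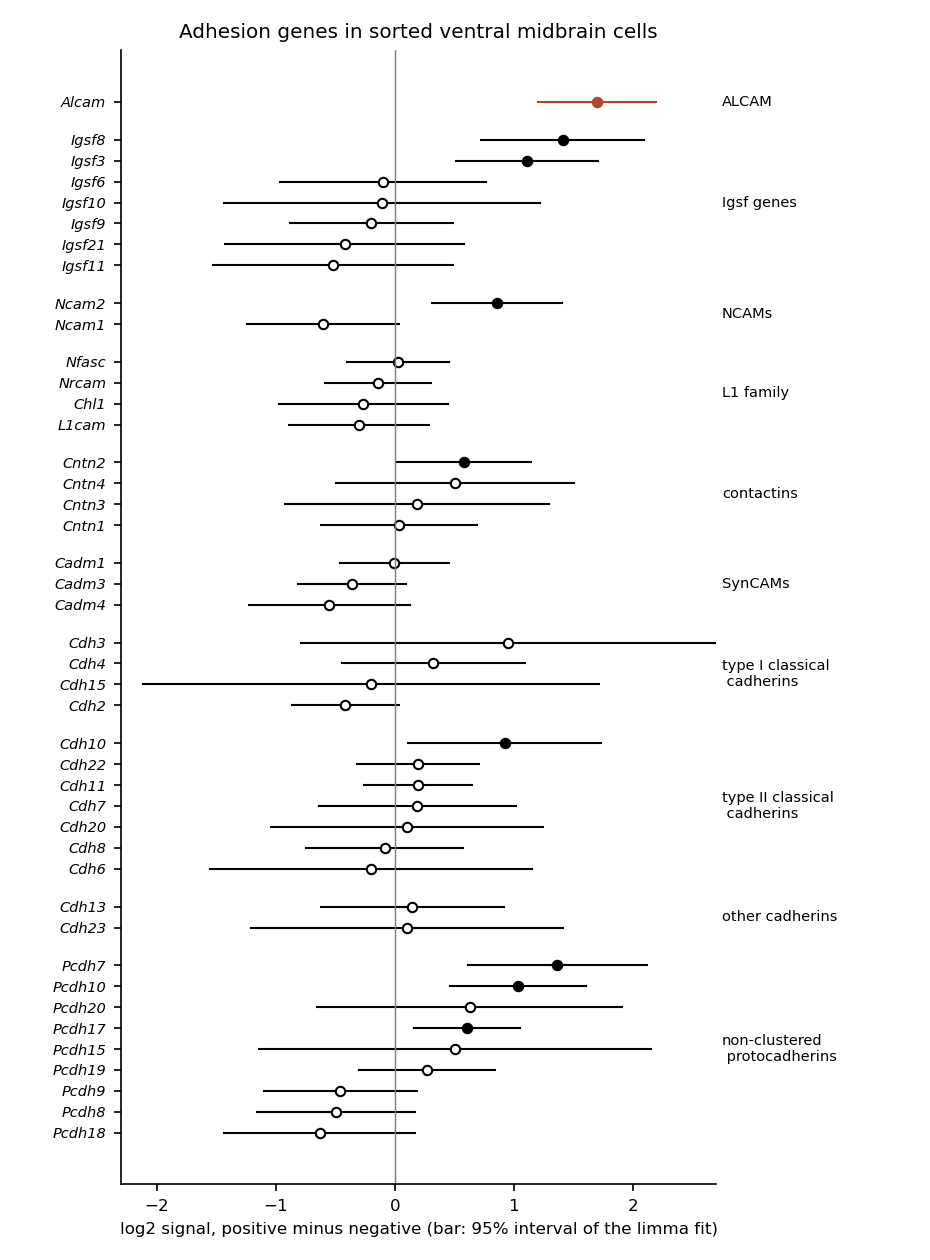
Difference in log2 signal, positive minus negative cells, for the 43 tested adhesion genes, grouped by family, with the 95% interval of the limma fit. The red point, Alcam at 1.70, is the one gene past the adjusted threshold; filled points have an unadjusted p under 0.05, and all 9 of these lie to the right of 0.

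The promoters of Alcam and of Igsf8, the member with the next smallest p-value, are printed as RefSeq gives them in GRCm38.p6, from 250 bases before to 50 bases after the annotated start, 5′ to 3′ on the strand of the gene. Alcam lies at chr16:52453032-52453331 on the minus strand and Igsf8 at chr1:172312117-172312416 on the plus strand.
Alcam: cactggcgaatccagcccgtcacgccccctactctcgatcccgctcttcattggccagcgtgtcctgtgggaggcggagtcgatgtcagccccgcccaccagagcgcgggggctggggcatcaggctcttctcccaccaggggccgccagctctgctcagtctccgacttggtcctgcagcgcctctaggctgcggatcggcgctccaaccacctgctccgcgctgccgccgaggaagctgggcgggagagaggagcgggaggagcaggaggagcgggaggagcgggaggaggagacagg
Igsf8: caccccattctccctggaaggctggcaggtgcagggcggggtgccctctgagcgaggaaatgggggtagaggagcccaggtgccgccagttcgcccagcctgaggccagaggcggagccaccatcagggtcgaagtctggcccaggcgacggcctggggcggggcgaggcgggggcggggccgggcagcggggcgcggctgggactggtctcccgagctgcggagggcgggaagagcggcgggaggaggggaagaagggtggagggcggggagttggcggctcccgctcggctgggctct
Both windows were rich in G and C. The share of G and C was 69.7% for Alcam and 74.3% for Igsf8, with 25 CpG dinucleotides in each. Both strands were searched for 4 motifs, none of which contains another: the homeodomain core TAATTA, the Nr4a-type element AAAGGTCA, and the E-boxes CATATG and CAGATG, a kind of site that proneural factors bind. None of the motifs was in either window. Of all 32851 promoters of this length, TAATTA was in 5.29%, AAAGGTCA in 1.51%, CATATG in 3.91% and CAGATG in 17.2%. Promoters were listed for 43 of the 58 members. These were counted by gene, with a motif in any promoter of the gene, whereas the shares above are of single promoters. TAATTA was in 2 (Cdh7 and Cntn4), AAAGGTCA in 1 (Igsf23), CATATG in 3 (Cdh10, Cdh15 and Cntn4) and CAGATG in 3 (Cdh7, Igsf1 and L1cam).

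ALCAM binds itself and the lymphocyte receptor CD6, and on neurons it is carried by growing axons. The signal of Alcam was 553, 611 and 695 on the positive arrays and 151, 181 and 251 on the negative arrays. Every positive array was above every negative one, with a gap between the groups wider than the spread within either. Alcam was 3.25-fold higher in positive cells, a log2 difference of 1.70 (SE 0.23, n = 3 per group, limma adjusted p = 0.00303). The other tested probe sets of the gene pointed the same way. For 1426300_at the signals were 177, 256 and 156 against 67.6, 67.5 and 47.1, for 1426301_at they were 226, 233 and 227 against 64.2, 112 and 84.9, and for 1437467_at they were 155, 72.5 and 136 against 33.2, 3.14 and 23.0. None of the 4 tested probe sets overlapped between groups. With each probe set tested on its own, 1426300_at (1.68, SE 0.29, limma adjusted p = 0.0149) and 1426301_at (1.43, SE 0.26, adjusted p = 0.0223) passed too, while 1437467_at did not (3.10, SE 0.71, adjusted p = 0.0837). The remaining probe set, 1443086_at, stayed between 0.44 and 5.58 on all 6 arrays and was not tested. The call of the gene held in each of the 6 fits that left out 1 array (1.53 to 1.90), and it was lost with no filter on dim signals (limma adjusted p = 0.0559) and without a trend in the variance (adjusted p = 0.0710).

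Alcam is also made by endothelial and blood cells, whose markers differed between the groups in part. Of 13 endothelial markers, 2 were tested and neither passed, with a summed signal of 123 to 147 on the positive and 62.5 to 107 on the negative arrays. The defining endothelial genes Pecam1, Cldn5 and Kdr were not tested. Their highest signals were 9.38, 14.2 and 27.1, and Kdr was above the 40th percentile on 2 arrays and the others on 0. Of 11 microglial and macrophage markers 6 were tested and 4 were lower in positive cells (summed signal 39.1 to 61.2 against 394 to 830), and of 8 erythroid markers all 5 tested were lower (323 to 630 against 7514 to 14950). The part of any of these cells in the difference of Alcam was not tested. As total RNA of a sorted population was measured, more cells that carry a transcript and more of it per cell cannot be told apart, here and for every gene below.

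Positive cells carried the dopaminergic lineage marker Lmx1a, and Neurog2 was measured in both groups. Neurog2, the gene of the positive reporter, gave 706, 585 and 500 on the positive and 338, 388 and 334 on the negative arrays, with no overlap, but it missed the threshold (0.75, SE 0.21, limma adjusted p = 0.155). Lmx1a, the gene of the reporter whose absence defined the negative cells, gave 146, 170 and 78.7 on the positive arrays. It did not exceed the filter on any negative array. It was at least 9.65-fold higher in positive cells (limma adjusted p = 0.00167), where the bound sets the negative arrays at their 40th percentile. As the gate selected for low Lmx1a in negative cells, this difference is no independent support for the identity of the positive cells. Of 9 tested dopaminergic lineage genes 6 were higher, Lmx1a among them. Of 9 midbrain GABAergic genes 7 were lower, as were 4 of 6 motor neuron and serotonergic genes. None of 11 general neuronal genes passed, with a summed signal of 15468 to 22666 on the positive and 18220 to 23033 on the negative arrays, nor any of 5 tested pericyte and mesenchyme genes. Signals were scaled by the authors to a 2% trimmed mean of 100 on every array, with medians of 18.1 to 25.5. Positive replicates 1 and 2 stood apart from the other 4 arrays. Their hybridisation spike-in controls averaged 2293 and 2352 (geometric mean) against 4254 to 6560 on the others, their 18S ribosomal RNA signal was 3713 and 3696 against 7241 to 9276, and their ratio of 3′ to 5′ Gapdh signal was 4.41 and 4.73 against 5.94 to 9.21. The labels give no batch. Many results in which positive replicate 3 resembles the negative arrays are therefore given beside a fit with spike-in level as a block. In that fit the difference between groups rests on positive replicate 3 against the 3 negative arrays. Others, among them Ctnnb1 and single probe sets of Cadm1 and Cadm3, are given without it. Group and spike-in level coincide once positive replicate 3 is left out, and cannot then be told apart.

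Among the Igsf genes, 7 of 10 were tested and 0 passed, with 2 values above 0, 5 below and a median of -0.11. The 2 above 0, Igsf8 and Igsf3, are close relatives whose proteins bind tetraspanins in the membrane. Igsf8 gave 399, 383 and 220 on the positive and 83.6, 118 and 182 on the negative arrays. The groups did not overlap, but positive replicate 3 lay nearer to negative replicate 3 than to the other positive arrays. The log2 difference of 1.41 (SE 0.32, 95% interval 0.73 to 2.09) missed the threshold (limma adjusted p = 0.0589). It passed without positive replicate 3 (1.69, limma adjusted p = 0.0157) and without negative replicate 3 (1.70, adjusted p = 0.0364), and was 0.86 with spike-in level as a block (adjusted p = 0.803).

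Igsf3 showed a like order of arrays, with 602, 566 and 324 against 257, 164 and 258. Its difference was 1.11 (SE 0.28, limma adjusted p = 0.103), with 0.55 in the fit with spike-in level as a block and 1.40 without positive replicate 3, where it passed (limma adjusted p = 0.0133). That value came from 1 of the gene's 3 tested probe sets. The others gave 0.02 (1455048_at, with 240, 293 and 390 against 211, 418 and 295) and 0.22 (1431322_at), and their groups overlapped. Igsf6, an immune cell gene, had signals of 27.7 to 66.1 on the positive and 39.9 to 57.8 on the negative arrays (-0.10, SE 0.40), and Igsf9, Igsf10, Igsf11 and Igsf21 had differences of -0.52 to -0.11 with overlapping groups.

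**Figure D2:**
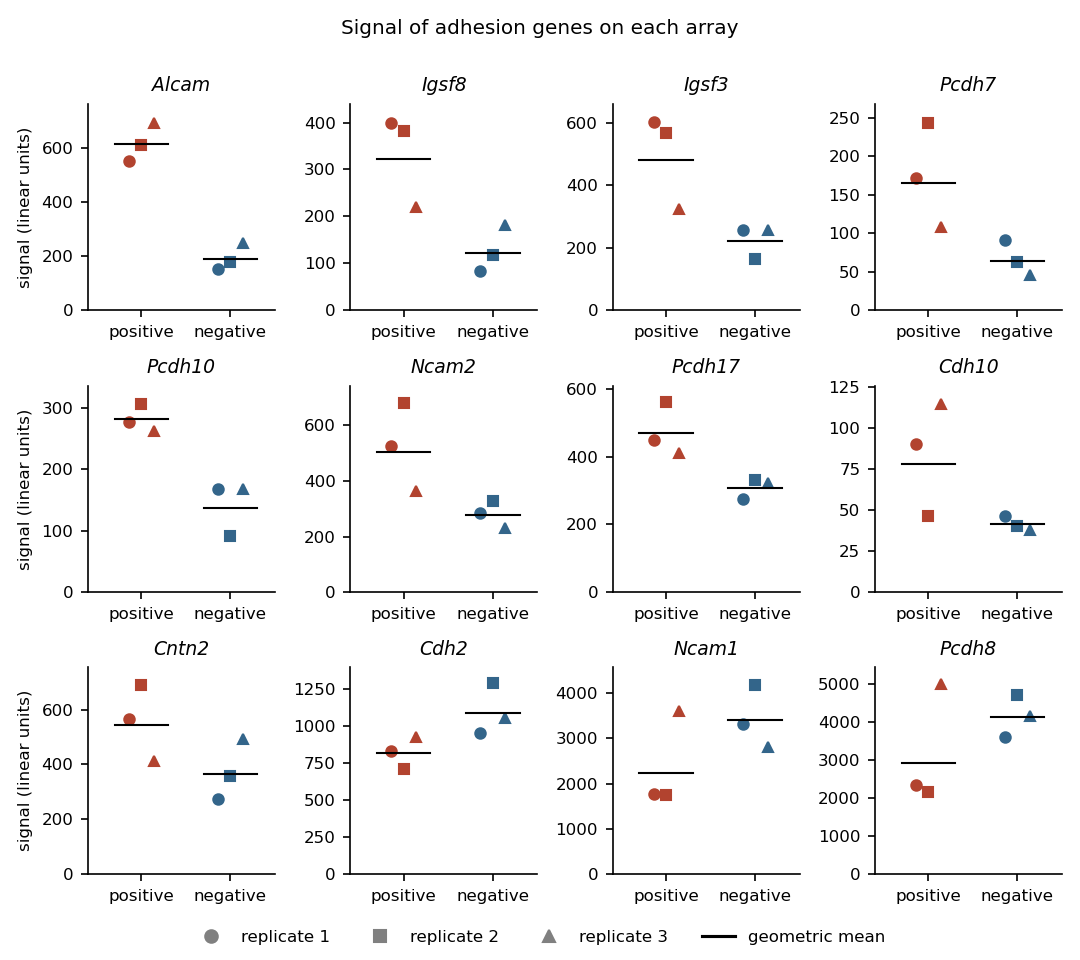
Signal on each array (linear axis from 0) of 12 adhesion genes, with marker shape for the replicate and a bar for the geometric mean of 3 arrays. Alcam's positive arrays (553 to 695) stand clear of its negative arrays (151 to 251), while positive replicate 3 (triangles) lies near or among the negative arrays for Igsf8, Ncam1 and Pcdh8.

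The NCAM genes had values of opposite sign, and neither passed. NCAM1 is the abundant neural cell adhesion molecule whose polysialic acid chains loosen contacts between young neurons, and NCAM2 is its relative best known from olfactory axons. Ncam2 gave 525, 678 and 362 on the positive and 284, 328 and 231 on the negative arrays. The groups did not overlap (0.86, SE 0.25, limma adjusted p = 0.200). Its 2 other probe sets gave 0.33 and 0.02, and with spike-in level as a block the value of the brightest was 0.38. Ncam1 gave 1772, 1748 and 3597 against 3322, 4188 and 2813, so positive replicates 1 and 2 were below all negative arrays and positive replicate 3 was among them. Its difference of -0.60 (SE 0.30, limma adjusted p = 0.489) became 0.08 with spike-in level as a block and -0.95 without positive replicate 3, where it passed (limma adjusted p = 0.0144). Over its 7 tested probe sets the differences ran from -0.60 to 0.35. Without probe sets whose names mark shared or cross-hybridising sequence the gene was represented by another one and stood at 0.35.

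The L1 family links neurites to each other and, inside the cell, to ankyrins. All 4 members were tested and none passed, with 1 value above 0, 3 below and a median of -0.20. Each of those 3 also had a probe set above 0. It gave 0.21 for L1cam (1421958_at) and 0.26 for Nrcam (1430583_at), and those of Chl1 follow in the next paragraph. The remaining tested probe set of Nrcam, 1458833_at, gave -0.39. Nrcam gave 875, 1088 and 923 on the positive and 1025, 1241 and 923 on the negative arrays, and the groups overlapped (-0.14, 95% interval -0.58 to 0.30). Nfasc, the neurofascin gene, spanned 269 to 300 on the positive and 270 to 301 on the negative arrays (0.03, 95% interval -0.40 to 0.45), and L1cam gave 203, 180 and 374 against 280, 277 and 327 (-0.30, SE 0.27). Positive replicate 3 was the highest L1cam array and the other positive arrays the lowest. With spike-in level as a block L1cam stood at 0.35, Chl1 at 0.49, Nfasc at 0.06 and Nrcam at -0.19, so 3 of the 4 values were then above 0 and 1 below.

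Chl1, the close homologue of L1, was the member whose probe sets disagreed with a call at stake. The brightest, 1435190_at, gave 3332, 2986 and 6932 on the positive and 4808, 6377 and 3883 on the negative arrays. Its groups overlapped and positive replicate 3 was the highest of all 6 arrays (-0.26, SE 0.33, limma adjusted p = 0.795). A second one, 1417795_at, gave 651, 731 and 350 against 210, 186 and 156. Here the groups did not overlap, and as a single probe set it was higher in positive cells (1.59, SE 0.28, limma adjusted p = 0.0158). The third, 1443713_at, gave 0.23. Within each array the log2 signal of 1417795_at minus that of 1435190_at was -2.36, -2.03 and -4.31 in positive and -4.52, -5.10 and -4.64 in negative cells. Of the gene's tested probe sets 1417795_at was taken because its adjusted p between these same groups was smallest. The comparison within arrays is therefore no independent support. That difference within arrays moved by 1.85 between groups (exact permutation p = 0.1, two-sided, the smallest that 3 against 3 arrays can give). Positive replicate 3 lay close to the negative arrays in it, so the shift rested on positive replicates 1 and 2, the arrays with lower spike-in controls. With spike-in level as a block 1417795_at stood at 0.94 (limma adjusted p = 0.494). Its call was also lost without positive replicate 1 (adjusted p = 0.0929), positive replicate 2 (0.103), negative replicate 2 (0.0657) or negative replicate 3 (0.0920), where the differences were 1.47, 1.39, 1.60 and 1.48.

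**Figure D3:**
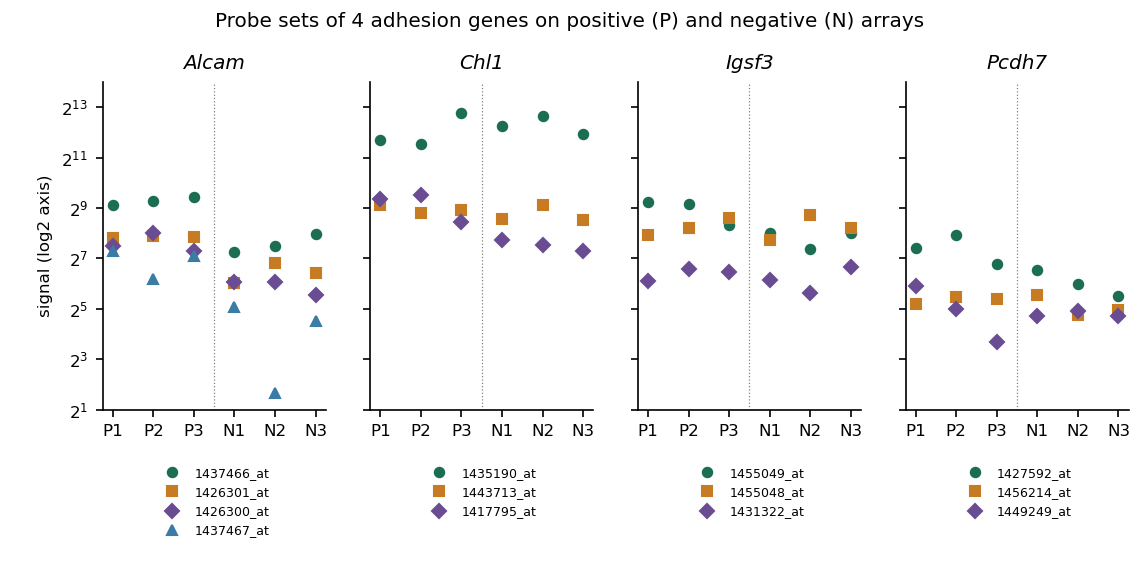
Signal of each tested probe set (log2 axis) of Alcam, Chl1, Igsf3 and Pcdh7 on the positive (P) and negative (N) arrays, 1 point per array. All 4 Alcam probe sets lie higher on the positive arrays, whereas in Chl1, Igsf3 and Pcdh7 only 1 probe set of 3 separates the groups.

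Tested one by one, 4 of the members' 99 tested probe sets were higher in positive cells, against 0.233% of all 23177 tested probe sets, and 0 were lower, against 0.414%. They were 3 of Alcam and 1417795_at of Chl1. Of 29 member genes with more than 1 tested probe set, 13 had probe sets of both signs. These counts moved with the arrays. A single probe set, 1437466_at of Alcam, passed without positive replicate 1, without positive replicate 2, without negative replicate 3 and with spike-in level as a block, while 11 higher and 2 lower passed without positive replicate 3. With that block Alcam's 1426300_at differed by 1.38 against 1.68 over all arrays (limma adjusted p = 0.435) and its 1426301_at by 1.42 against 1.43 (limma adjusted p = 0.325), the highest adjusted p-values of these fits for both.

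Contactins are anchored to the membrane by a lipid and pair with L1-type proteins or with phosphatases. Of 6 genes 4 were tested, none passed, and all 4 values were above 0 (median 0.35). Cntn2 (TAG-1), found on young outgrowing axons, gave 566, 691 and 413 on the positive and 273, 359 and 494 on the negative arrays. The groups overlapped through positive replicate 3 and negative replicate 3 (0.58, SE 0.26, limma adjusted p = 0.453), and the value was 0.18 with spike-in level as a block. Its 4 probe sets ran from 0.14 to 1.13. Cntn1 spanned 66.9 to 80.4 on the positive and 58.8 to 97.5 on the negative arrays (0.04, 95% interval -0.62 to 0.70). Another probe set of Cntn1, 1452981_at, gave -0.31 (SE 0.37). Cntn3 and Cntn4 stood at 0.19 and 0.51, with overlapping groups. With spike-in level as a block Cntn1 stood at -0.095, Cntn3 at -0.13 and Cntn4 at 1.10, so not all contactin values were then above 0.

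The 3 SynCAM genes on the array, whose proteins bridge synapses, were all tested, and none passed. Their values were all below 0, with a median of -0.36. Cadm1 gave 1135, 969 and 1392 on the positive and 1292, 1053 and 1132 on the negative arrays, and its interval was -0.46 to 0.45. Of its 4 probe sets 1431611_a_at gave 0.73, with 903, 1059 and 526 against 512, 395 and 544 and overlapping groups (SE 0.26, limma adjusted p = 0.373), and the others gave -0.26, -0.14 and, for the brightest, -0.00. Cadm3 gave 884, 914 and 1048 against 1032, 1150 and 1500, overlapping by positive replicate 3 and negative replicate 1 (-0.36, SE 0.21, limma adjusted p = 0.560). Another probe set of Cadm3, 1418921_at, gave 0.85, with 1279 and 897 on positive replicates 1 and 2 but 375 on positive replicate 3, within the negative range of 324 to 556. The third, 1449272_at, gave 223, 199 and 213 against 307, 238 and 237, and its groups did not overlap (-0.29, SE 0.22, limma adjusted p = 0.685). Cadm4 stood at -0.55 (SE 0.31).

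Among type I classical cadherins 4 of 5 were tested and 0 passed, with a median of 0.06. Cdh2, N-cadherin, which joins neuroepithelial cells at their apical junctions, gave 828, 710 and 923 on the positive and 952, 1285 and 1048 on the negative arrays. Among the 43 tested genes, each by its brightest probe set, it was the one whose positive arrays all lay below its negative arrays (-0.41, SE 0.21, limma adjusted p = 0.491), and its other probe set gave -0.05 with overlapping groups. Beside it, the radial glia markers, neuroepithelial genes in part, had 9 of 10 values below 0 and 2 of 10 lower past the threshold, with a summed signal of 5123 to 7775 against 8956 to 10919, and their part in the value of Cdh2 was not tested. Cdh4, R-cadherin, gave 122, 87.0 and 80.0 against 46.1, 79.6 and 118, with no separation of the groups (0.32, SE 0.36). Its other tested probe set, 1449422_at, gave 89.8, 86.4 and 90.8 against 77.3, 43.1 and 76.6. The groups of that probe set did not overlap (0.49, SE 0.32, limma adjusted p = 0.632). Cdh3 and Cdh15, the placental and muscle cadherins, were near the filter, with no signal above 48.0.

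Type II cadherins, whose combinations mark motor pools and brain nuclei, had 7 of 11 genes tested, 0 calls and a median of 0.19. Cdh10 gave 90.1, 46.3 and 115 on the positive and 46.4, 40.2 and 37.7 on the negative arrays. Positive replicate 2 was level with negative replicate 1 and the other positive arrays lay above all negative ones, giving 0.92 (SE 0.37, limma adjusted p = 0.387). In the fit with spike-in level as a block it was 1.48 (limma adjusted p = 0.475). Cdh11 spanned 219 to 260 against 189 to 227 (0.20, 95% interval -0.26 to 0.65), and Cdh22 121 to 163 against 118 to 123 (0.20, 95% interval -0.32 to 0.71). Both pairs of ranges overlapped. Cdh6, Cdh7, Cdh8 and Cdh20 had values of -0.20 to 0.19. Among the other cadherins, Cdh13, T-cadherin, which has a lipid anchor in place of a cytoplasmic tail, gave 250, 107 and 88.5 against 126, 98.3 and 141 (0.15, SE 0.36). Another probe set of it, 1423551_at, gave 49.3, 45.5 and 32.2 against 73.5, 70.7 and 80.0, with no overlap in the opposite direction (-0.84, SE 0.33, limma adjusted p = 0.401). Cdh23, a component of hair cell tip links, did not exceed 18.9 on any array in its tested probe set (0.10, SE 0.60).

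Non-clustered protocadherins had the highest family median of those with more than 1 tested gene, 0.50 over 9 tested of 11, with 6 values above 0, 3 below and 0 calls. That median is the value of the dim gene Pcdh15, with 28.2, 22.9 and 17.5 against 27.4, 36.7 and 3.96 (SE 0.76). With spike-in level as a block Pcdh15 stood at 0.15. Pcdh7 gave 171, 243 and 109 on the positive and 91.8, 63.5 and 45.6 on the negative arrays. The groups did not overlap (1.36, SE 0.35, limma adjusted p = 0.112). It passed without positive replicate 3 (1.67, limma adjusted p = 0.0255) and stood at 0.76 with spike-in level as a block, and its 2 other probe sets gave 0.26 and 0.08. Pcdh10, OL-protocadherin, which takes part in forebrain axon growth, gave 278, 307 and 262 against 168, 91.8 and 169. The groups stood well apart and positive replicate 3 was with the other positive arrays (1.04, SE 0.26, limma adjusted p = 0.114). Its value was 0.93 with spike-in level as a block (limma adjusted p = 0.671). All 5 of its tested probe sets were above 0, from 0.12 to 1.04. Only the brightest of them, whose name marks sequence shared between transcripts, separated the groups. The untested one, 1442565_at, gave 14.4, 6.49 and 8.25 against 16.7, 15.9 and 8.53, above the filter on 2 negative arrays only.

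Pcdh17 gave 449, 561 and 412 on the positive and 275, 330 and 322 on the negative arrays (0.61, SE 0.21, limma adjusted p = 0.281), and its second probe set, with 125, 126 and 150 against 111, 94.0 and 113, did not overlap either (0.33). Pcdh8, a protocadherin of paraxial mesoderm and of synapses, gave 2344, 2163 and 4995 against 3608, 4713 and 4170. Positive replicates 1 and 2 were the lowest arrays and positive replicate 3 the highest (-0.49, SE 0.31, limma adjusted p = 0.580). The difference was 0.27 with spike-in level as a block and -0.88 without positive replicate 3, where it passed (limma adjusted p = 0.00996). Pcdh9, Pcdh15, Pcdh18, Pcdh19 and Pcdh20 had values of -0.63 to 0.63 with overlapping groups.

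The fit with spike-in level as a block left Alcam as the one member past the threshold, at 1.87 (SE 0.32, limma adjusted p = 0.0415). Fits without 1 array called 1 to 5 members higher and 0 to 2 lower. The 5 were Alcam, Igsf3, Igsf8, Ncam2 and Pcdh7 without positive replicate 3, the fit in which Ncam1 and Pcdh8 were the 2 lower, and Alcam and Igsf8 passed without negative replicate 3.

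**Figure D4:**
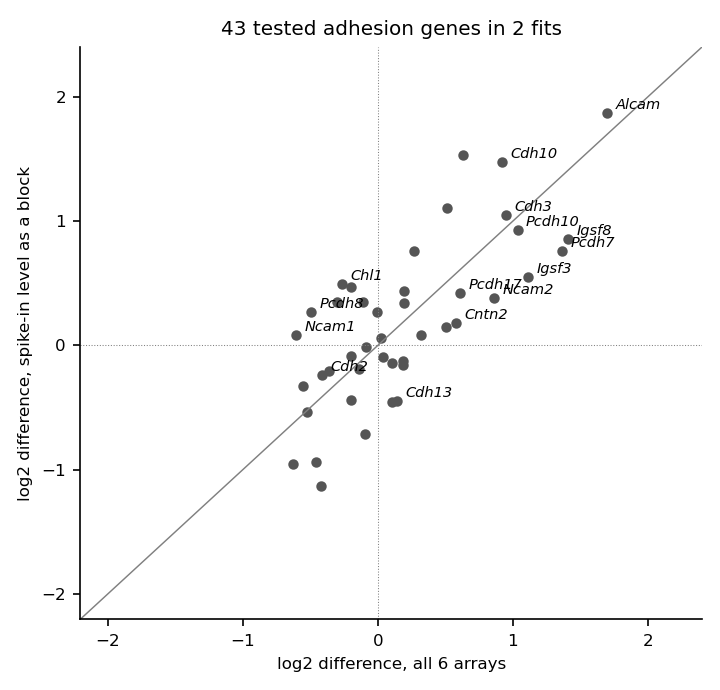
Log2 difference, positive minus negative, of the 43 tested adhesion genes over all 6 arrays (x axis) and with spike-in level as a block (y axis), 1 point per gene, with a line of equal values. Alcam (1.70 and 1.87) and Pcdh10 (1.04 and 0.93) lie near the line, Igsf8, Pcdh7, Igsf3 and Ncam2 lie below it, and Chl1, Ncam1 and Pcdh8 change sign.

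The 15 untested members did not exceed 23.6 on any array, where the 40th percentile lay between 10.2 and 15.8. They were E-cadherin (Cdh1), the endothelial cadherin Cdh5 (at most 12.5), the kidney and intestinal cadherins Cdh16 and Cdh17, and Cdh9, Cdh18, Cdh19, Cdh26, Pcdh1, Pcdh12, Cntn5, Cntn6, Igsf1, Igsf5 and Igsf23. Of these 15, Cdh1 and Cdh9, picked out here after their values were seen, had groups that did not overlap. Cdh1 gave 6.90, 5.56 and 5.19 on the positive and 21.0, 21.4 and 10.1 on the negative arrays, and Cdh9 gave 12.8, 12.0 and 16.9 against 7.41, 1.88 and 2.62, so Cdh1 was above the 40th percentile on 2 arrays and Cdh9 on 1. In the fit with no filter neither passed, with -1.50 for Cdh1 (SE 0.60, limma adjusted p = 0.563) and 2.05 for Cdh9 (SE 0.71, limma adjusted p = 0.503), and neither did any other of the 15. In the gene table Cdh6, Cdh9 and Cdh10 follow each other, as do Cntn3, Chl1, Cntn6 and Cntn4, and in these runs Cdh9 and Cntn6 were not tested while their neighbours were.

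The catenins and their linkers, which tie classical cadherins to actin, had 11 of 12 genes tested and 0 calls, with 4 values above 0, 7 below and a median of -0.09. Ctnnb1, beta-catenin, gave 2616, 2620 and 5340 against 4793, 6040 and 4700, again with positive replicates 1 and 2 below all other arrays (-0.63, SE 0.30, limma adjusted p = 0.472), and Ctnnd2 stood at 0.03. Of 13 tested genes of the wider cadherin superfamily 1 was higher and 1 lower (median 0.39). The higher one was Ret, a receptor kinase with cadherin-like domains that serves the ligand GDNF, with 50.7, 47.5 and 44.9 on the positive arrays and 9.64, 10.1 and 9.79 on the negative arrays, none of which exceeded the filter. Ret was at least 3.68-fold higher (limma adjusted p = 0.0353). Fat1, a giant protocadherin of cell contacts, gave 259, 157 and 315 against 642, 964 and 491 and was lower, with a difference of -1.52 (SE 0.30, limma adjusted p = 0.0275). Neither call held with spike-in level as a block, where Ret differed by 2.19 against 2.28 in the fit over all arrays (SE 0.65 against 0.46, limma adjusted p = 0.380) and Fat1 by -1.09 (limma adjusted p = 0.556). Ret missed the threshold in each fit without 1 array (limma adjusted p 0.0506 to 0.257) with differences of 2.23 to 2.32, and Fat1 in those without positive replicate 1 (0.0572), positive replicate 2 (0.145), negative replicate 1 (0.0785) or negative replicate 2 (0.122), with differences of -1.59 to -1.23 in these. Partners of the immunoglobulin adhesion molecules had 20 of 21 genes tested, 10 above 0, 10 below and 0 calls. The brightest were the growth cone protein Gap43 (0.65, SE 0.21, limma adjusted p = 0.242) and St8sia4, which makes polysialic acid on NCAM1 (-0.24, SE 0.21).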

How the data were processed

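Biotin-labelled cRNA made from total RNA was hybridised to 1 array per sample, per the labels' protocols. The authors deposited 1 table of linear intensity values, with 45101 probe sets and 6 arrays. MAS5, limma and R 2.14.2 are named in the submitters' processing notes, with MAS5 the likely source of the values. Each array has a 2% trimmed mean of 100, so differences in total RNA are not measured, and array slides and scans were not analysed here. The number of arrays limits the precision.

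Genes come from the platform annotation. Of 45037 probe sets other than controls 34957 had 1 symbol, 920 several and 9160 none listed. All 58 members matched the GRCm38.p6 gene table by Entrez ID. Intensities were raised to at least 1 and put on a log2 scale without rescaling. The comparison used lmFit and eBayes with a trend, two-sided, from limma 3.58.1 (R 4.3.3). It was also run on simulated arrays with known changes. Their spread was drawn without regard to brightness and no arrays stood apart, so that run does not bear on these features of the data. Members with a call, with an unadjusted p under 0.05, and the 2 brightest tested of each family were named, as were further genes to complete a count, a range or a comparison of probe sets. Members, families, lists and rules were chosen with earlier results of these data known, among them the call of Alcam and the split in spike-in level, so neither is independent support here. Alternatives were quantile normalization, centring on the median, a 60th percentile filter or none, log2(signal + 32), no trend, other choices of probe set, a block for the replicate number or the spike-in level, and fits of 5 arrays. Fits of single probe sets with arrays left out or the spike-in level as a block were added after the data were seen, as were those of Ret, Fat1 and Neurog2. Promoters are those of RefSeq. Plots come from matplotlib 3.10.9 (Python 3.11.15).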

Additional observations from a re-analysis of the deposited data

How the results depend on the processing

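The count of 1 member higher in positive cells was 0 with no filter on dim signals and 0 without a variance trend, 2 with the filter at the 60th percentile and 2 with log2 of the signal plus 32 (Alcam and Igsf8 in both), and 4 when each probe set was counted. It ran from 1 to 5 in the fits without 1 array, and the count of 0 lower ran from 0 to 2. At an unadjusted limma p under 0.05, 9 members were higher and 0 lower over all arrays. These counts were 5 and 0 with probe sets averaged per gene, and 8 and 6 without positive replicate 3. In the other fits without 1 array they were 7 to 8 higher and 0 to 1 lower. The share of all genes at that p was not counted in these alternatives. Igsf8 had a limma adjusted p of 0.0420 with the stricter filter and 0.0345 with log2 plus 32, within a range of 0.0157 to 0.803 over its 16 alternatives. Same-numbered arrays of the groups correlated at 0.14, -0.10 and 0.03 in their deviations from the group means. Arrays of different number correlated at -0.16 to 0.12. These values cannot settle whether same-numbered samples were handled together. With the replicate number as a block 1 member was higher and 0 were lower. Among the 22 members named by rule, signs changed under some alternative for 9, none of which had a call over all 6 arrays. With spike-in level as a block alone 13 of all 43 tested members changed sign, 7 of these among the 22. With quantile normalization Cadm1 was 0.12, Chl1 0.32 and Cntn1 -0.016. With probe sets averaged per gene Cadm1 was 0.083, Cadm3 0.067, Cdh13 -0.27, Chl1 0.52 and Cntn1 -0.14. Without probe sets of shared sequence Ncam1 was 0.35. With spike-in level as a block Cadm1 was 0.27, Cdh13 -0.44, Cdh23 -0.14, Chl1 0.49, Cntn1 -0.095, Ncam1 0.084 and Pcdh8 0.27. Without 1 array Cadm1 ran from -0.14 to 0.12, Cdh13 from -0.31 to 0.44, Cdh23 from -0.047 to 0.35, Cdh4 from -0.034 to 0.64 and Cntn1 from -0.10 to 0.26. The cause of these changes was not tested.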

Other observations

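Clustered protocadherins, which give single neurons a surface identity, lie beside the families above. Of 23 such genes with a probe set, all but Pcdhgc4 were of the beta cluster (Pcdhb), and none was of the alpha cluster. The values are therefore nearly all of the beta cluster. Among the 17 tested, 15 had values above 0 and 2 below, with 0 calls, and 52.4% of all tested genes had values above 0. The median was 0.42 against 0.03 over all tested genes. The groups did not overlap for Pcdhb12, Pcdhb17 and Pcdhb21, all on the higher side, against 8.21% of all tested genes. They overlapped for the others, Pcdhb19 among them. None of the 17 is given with spike-in level as a block. The brightest were Pcdhb19, with 91.0, 181 and 170 on the positive and 120, 50.8 and 30.4 on the negative arrays (1.31, SE 0.45, limma adjusted p = 0.288), and Pcdhb20 (0.42, SE 0.30). Their genes are near copies of each other, so probe sets may share signal. Of 16 other tested immunoglobulin adhesion molecules 6 had values above 0 and 10 below, the median was -0.16 and none passed. The brightest were Cxadr (0.14, SE 0.19), the receptor of coxsackieviruses and adenoviruses, and Negr1, a lipid-anchored molecule of neurites (0.38, SE 0.19, limma adjusted p = 0.498), whose positive arrays at 836, 913 and 939 all lay above its negative arrays at 628, 685 and 765. The groups of 4 of these 16 genes did not overlap, against 8.21% of all tested genes on the higher and 7.25% on the lower side. Nectin2 (0.23) was on the higher side beside Negr1. On the lower side were Dscam, with 99.3, 125 and 108 against 140, 206 and 134 (-0.51, SE 0.26, limma adjusted p = 0.496), and Kirrel3, with 305, 293 and 518 against 997, 775 and 606 (-1.11, SE 0.26, limma adjusted p = 0.0787). Kirrel3 had the largest difference of the 16. Nectin2, Dscam and Kirrel3 were picked out after their values were seen.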
